A study of Homo sapiens with 15 samples.

Results

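The 55 genes described here encode proteins that copy DNA in S phase or that open the way to it. They were taken by gene symbol alone, and each symbol was listed once among the 60651 genes of a count table and once among the 23792 genes of a second table given in fragments per 1000000 fragments (FPM). All 55 passed the filter on low values in both tables, where 16786 and 15265 genes were tested. The count table held 3 libraries of SG1 and 3 of SG3, both labelled as a knockdown of KIF20A, and 3 libraries of CTRL, labelled wild type. The FPM table held 3 libraries labelled KIF20A_OE, for an overexpression of KIF20A, and 3 libraries of EV, labelled wild type. All 15 carried the cell line label MDA-MB231, which names a triple-negative human breast cancer line, here grown in DMEM with serum. KIF20A is a kinesin motor that works on the central spindle during cytokinesis. The labels give no meaning for SG1, SG3 or EV, do not say whether a group was a clone or a pool, and do not say whether replicates were separate cultures, so all p-values rest on a spread between libraries that may be only technical.

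DNA replication starts at origins that are licensed in G1. The origin recognition complex, CDC6 and CDT1 load the ring-shaped MCM helicase there, and geminin (GMNN) blocks CDT1 so that no origin is licensed again in the same cycle. At the start of S phase the CDC7 kinase with its partner DBF4, together with cyclin-dependent kinases, turns the loaded ring into an active helicase that carries CDC45 and the GINS complex. Primase and DNA polymerases then copy the strands, the PCNA clamp holds the polymerases in place, and FEN1 and LIG1 join the pieces of the lagging strand. Transcription of many of these genes is controlled by the E2F factors, which the retinoblastoma protein holds in check until cyclin E acts, and expression of the set is a common measure of proliferation in tumour cells.

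KIF20A, the targeted gene, was measured first as a check of the labels. It had 123, 147 and 91.5 counts per 1000000 counts (CPM) in SG1 libraries and 86.3, 60.8 and 79.1 CPM in SG3 libraries, against 154, 171 and 160 CPM in CTRL libraries. Every SG1 and SG3 library lay below every CTRL library. SG1 against CTRL had a log2 fold change of -0.42 ± 0.18 (SE) and SG3 against CTRL one of -1.10 ± 0.18, with adjusted p of 0.913 and 0.33 in the quasi-likelihood test of edgeR, so neither passed the threshold of 0.05 across all genes. For SG1 the value lay between -0.59 without replicate 2 of SG1 and -0.26 without replicate 3 of SG1. For both groups averaged against CTRL it was -0.76 ± 0.15 (edgeR unadjusted p = 0.000135, adjusted p = 0.453). In SG1 against SG3 it was 0.68 ± 0.18 (edgeR unadjusted p = 0.00167, adjusted p = 0.861), with every SG1 library above every SG3 library. In the FPM table KIF20A had 1348, 269 and 896 FPM in libraries labelled KIF20A_OE, against 101, 143 and 124 FPM in EV libraries, without overlap (log2 fold change 2.49 ± 0.53, limma adjusted p = 0.00415).

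The libraries labelled KIF20A_OE went against the MDA-MB231 label. Of 6 genes chosen as present in that line, 5 fell and 1 (LDHB) rose against EV, and their summed level was 563 to 999 FPM in libraries labelled KIF20A_OE, against 5026 to 5804 FPM in EV libraries and 4900 to 5781 CPM in the depletion libraries. The cell surface glycoprotein CD44 had 0.125, 0.316 and 1.23 FPM in libraries labelled KIF20A_OE, against 788, 615 and 523 FPM in EV libraries. The receptor kinase AXL had 0.751, 0.811 and 0.75 FPM in libraries labelled KIF20A_OE, against 967, 1107 and 811 FPM in EV libraries. CDKN2A, which encodes an inhibitor of the kinases that start S phase, had 276, 336 and 353 FPM in libraries labelled KIF20A_OE and was listed at 0 in all 3 EV libraries and all 9 depletion libraries. Of 7 genes chosen as low in that line, 6 were tested, and the calls went both ways: FOXA1 (3.95) and the cadherin CDH1 (1.79) rose on the log2 scale in limma, while EPCAM (-2.88) and ERBB2 (-0.63) fell. The estrogen receptor gene ESR1 was near 0 throughout, at 0.501, 0.0902 and 0 FPM in libraries labelled KIF20A_OE, against 0, 0 and 0.118 FPM in EV libraries. The 3 libraries carried both this difference and the difference in KIF20A, so for every value that follows from KIF20A_OE against EV the effect of KIF20A and the difference between the source cells cannot be told apart. Of 6 fibroblast, 6 leukocyte and 5 endothelial markers, 5, 4 and 5 were listed in the FPM table. Their summed levels were 76 to 84.8, 3.69 to 3.96 and 1.18 to 36.3 FPM in libraries labelled KIF20A_OE. In EV libraries they were 27.3 to 97.1, 0.677 to 5.35 and 18.2 to 31.6 FPM. The fibroblast calls went both ways on the log2 scale in limma: COL1A1 (1.21) rose, while COL1A2 (-3.4) and PDGFRB (-1.82) fell. COL1A1 had 74.6, 82.2 and 74.5 FPM in libraries labelled KIF20A_OE, nearly all of their fibroblast sum. The endothelial sum of 36.3 FPM was that of replicate 2. In all bulk values here, fewer cells in S phase and less of an RNA per cell cannot be told apart.

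Many promoters of the set hold a sequence feature that the choice of genes did not use. RefSeq promoters on GRCh38.p14, from 250 bases before to 50 bases after a start, were at hand for 48 of the 55 genes. The letters TTTCCCGC, TTTGGCGC, TTTCGCGC or TTTGCCGC, which are forms of the E2F motif, stood on either strand in 25 of those 48 genes (52.1%), against 3.99% of the 27305 genes of the promoter table and 6.35% of its genes that were tested in either expression table. The letters CCAAT, on either strand, stood in 60.4% of the 48 genes and in 39.7% of all genes. The letters TTTGAA, a core of the CHR element of G2/M genes, stood in 6.25% of the 48 genes, in 18.2% of all genes, and in 80% of the 25 genes of a G2/M list that had a promoter. The share of E2F letters in that G2/M list was 12%. The sequences below are the 250 bases before a RefSeq start, 5′ to 3′ on the gene's strand, of the 5 genes with the highest log2 fold change of the set in KIF20A_OE against EV, of MCM6, which carried the most matches, of UNG, which had the smallest p of the set in SG1 against CTRL, and of TYMS, which had the highest p in KIF20A_OE against EV. In CDT1, GINS2, POLA2, UNG and TYMS the end of the stretch also lies within an annotated transcript of the gene. There the bases are not all upstream of every annotated start. The E2F letters of either strand are in capitals. In MCM6 each capital run holds 2 overlapping matches, 1 on each strand.
E2F2, chr1:23531234-23531483, minus strand: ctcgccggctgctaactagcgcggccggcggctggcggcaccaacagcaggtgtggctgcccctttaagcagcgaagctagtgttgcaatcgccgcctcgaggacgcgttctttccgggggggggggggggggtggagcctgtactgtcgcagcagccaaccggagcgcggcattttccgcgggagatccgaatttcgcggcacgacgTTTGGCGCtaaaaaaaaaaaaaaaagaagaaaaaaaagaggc
CDC25A, chr3:48188418-48188667, minus strand: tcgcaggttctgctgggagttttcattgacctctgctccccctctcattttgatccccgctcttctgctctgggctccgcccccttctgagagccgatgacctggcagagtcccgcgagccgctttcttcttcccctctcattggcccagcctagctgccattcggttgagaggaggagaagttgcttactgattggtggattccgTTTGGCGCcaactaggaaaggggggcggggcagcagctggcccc
CDT1, chr16:88803539-88803788, plus strand: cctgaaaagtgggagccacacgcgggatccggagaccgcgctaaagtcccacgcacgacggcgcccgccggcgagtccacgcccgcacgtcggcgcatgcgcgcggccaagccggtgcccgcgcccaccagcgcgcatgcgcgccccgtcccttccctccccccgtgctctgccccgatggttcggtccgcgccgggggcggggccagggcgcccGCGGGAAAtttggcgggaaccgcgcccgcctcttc
POLA2, chr11:65261712-65261961, plus strand: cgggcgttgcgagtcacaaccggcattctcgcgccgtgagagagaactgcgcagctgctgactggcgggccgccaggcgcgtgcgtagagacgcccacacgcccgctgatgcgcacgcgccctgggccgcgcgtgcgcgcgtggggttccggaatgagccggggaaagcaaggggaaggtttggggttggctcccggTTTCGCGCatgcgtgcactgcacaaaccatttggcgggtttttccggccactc
GINS2, chr16:85688955-85689204, minus strand: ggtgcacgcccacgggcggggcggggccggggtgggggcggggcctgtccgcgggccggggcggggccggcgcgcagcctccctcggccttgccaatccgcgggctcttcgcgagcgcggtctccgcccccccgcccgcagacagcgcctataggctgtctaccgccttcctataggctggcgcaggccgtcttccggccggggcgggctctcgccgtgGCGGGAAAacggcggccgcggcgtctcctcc
MCM6, chr2:135876444-135876693, minus strand: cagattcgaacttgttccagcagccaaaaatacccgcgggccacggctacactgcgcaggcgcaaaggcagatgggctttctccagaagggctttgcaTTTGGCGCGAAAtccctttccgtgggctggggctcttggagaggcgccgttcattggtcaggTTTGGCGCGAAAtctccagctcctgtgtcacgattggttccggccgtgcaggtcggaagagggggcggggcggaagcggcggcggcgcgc
UNG, chr12:109097922-109098171, plus strand: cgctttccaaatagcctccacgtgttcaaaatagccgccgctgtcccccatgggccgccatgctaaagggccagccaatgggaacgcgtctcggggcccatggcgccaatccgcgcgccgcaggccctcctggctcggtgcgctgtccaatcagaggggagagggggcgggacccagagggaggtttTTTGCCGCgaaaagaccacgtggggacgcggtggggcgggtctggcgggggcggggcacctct
TYMS, chr18:657403-657652, plus strand: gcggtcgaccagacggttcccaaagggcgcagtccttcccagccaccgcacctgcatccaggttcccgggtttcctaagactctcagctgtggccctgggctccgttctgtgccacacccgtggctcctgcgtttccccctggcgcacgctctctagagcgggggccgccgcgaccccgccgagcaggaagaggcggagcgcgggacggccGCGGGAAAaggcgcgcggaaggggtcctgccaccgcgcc

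Levels can be compared between genes only per length, and CPM or FPM per kilobase of exon in GENCODE 29 was used for that. The length was that of all annotated exons of a gene joined, not of the transcripts expressed. Ranks and ratios between genes therefore rest in part on the annotation. PCNA was first of the 55 in all 5 groups, at 164 CPM per kilobase in SG1, 159 in SG3 and 175 in CTRL, and at 251 FPM per kilobase in libraries labelled KIF20A_OE and 127 in EV. MCM3 and thymidine kinase (TK1) were next, in either order, in SG1, SG3, CTRL and EV. In libraries labelled KIF20A_OE, the licensing factor CDT1 was among the highest of the 55 at 98.7 FPM per kilobase, against 17.7 in EV. E2F2, an activating E2F, and POLA2, the accessory subunit of polymerase alpha, were the lowest of the set in SG1, SG3, CTRL and EV. E2F2 was at 0.804 CPM per kilobase in SG1, 1.08 in SG3 and 0.809 in CTRL, and at 14.8 FPM per kilobase in libraries labelled KIF20A_OE and 1.56 in EV.

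By this measure, subunits of a complex were not level with each other. The lengths differed too, at 3650 bases for MCM3 and 7338 for MCM5, whose SG1 means were 423 and 104 CPM before division. Among the 6 subunits of the MCM ring, MCM3 exceeded MCM5 per length by 8.17-fold in SG1, 7.19-fold in SG3, 7.28-fold in CTRL and 6.36-fold in EV. In libraries labelled KIF20A_OE the range was 3.9-fold, from MCM5 to MCM7. GINS1 was the highest and GINS3 the lowest of the 4 GINS subunits in SG1, SG3, CTRL and EV, while GINS2 was the highest in libraries labelled KIF20A_OE. POLA2 was the lowest of the 4 subunits of polymerase alpha-primase in every group, at 1.06 CPM per kilobase in SG1, 1.14 in SG3 and 1.21 in CTRL, and at 4.17 FPM per kilobase in libraries labelled KIF20A_OE and 0.625 in EV. Both tables count whole genes, and the exons of 17 of the 55 genes overlap exons of another protein-coding gene in GENCODE 29. TYMS overlaps ENOSF1 and MCM7 overlaps AP4M1 on the opposite strand, while POLA2 overlaps AP000944.2 on the same strand. The sources used here do not give the strand setting of the counting, so reads of opposite-strand pairs cannot be told apart. Reads of same-strand pairs could not be parted by any strand setting. The part of this overlap in the low level of POLA2 was not tested.

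**Figure D1:**
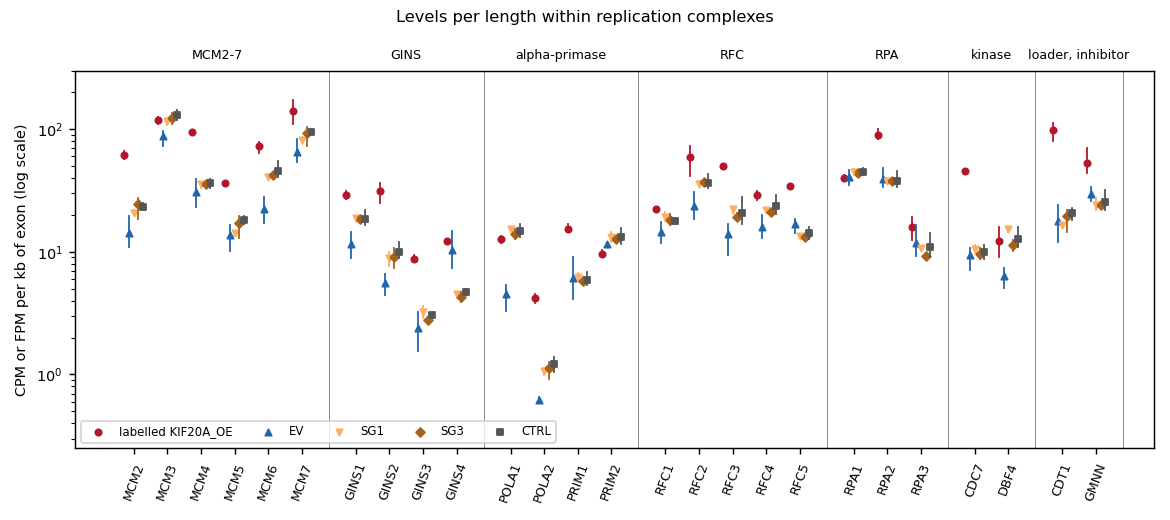
Mean CPM (SG1, SG3, CTRL) or FPM (labelled KIF20A_OE, EV) per kilobase of exon on a log axis for the subunits of replication complexes, with bars from the lowest to the highest of 3 libraries. POLA2, whose exons overlap those of another gene on the same strand, is the lowest subunit of polymerase alpha-primase in each group. CDT1 lies at 98.7 FPM per kilobase in libraries labelled KIF20A_OE against 17.7 in EV.

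In the depletion libraries none of the 55 genes passed the test. In SG1 against CTRL, 0 of 55 were called, as were 0% of the 16786 genes, and 2 of 55 (UNG and MCM5) had an unadjusted p under 0.05, where 4.59% of all genes did. The median log2 fold change of the set was -0.06, against 0.00 over all genes tested, with 17 genes above 0 (49.7% of all genes) and 38 below. In SG3 against CTRL, 0 of 55 and 0% of all genes were called, 0 of 55 had an unadjusted p under 0.05, where 1.19% of all genes did, and the median was -0.06, against -0.01 over all genes, with 12 genes above 0 (46.7% of all genes) and 43 below. For both depletion groups averaged and set against CTRL, 0 of 55 and 0% of all genes were called, 0 of 55 had an unadjusted p under 0.05, where 1.76% of all genes did, and the median was -0.05, against -0.01 over all genes, with 12 genes above 0 (46.9% of all genes) and 43 below. The 6 with the smallest p in that average were UNG, MCM5, FEN1, CDT1, CHAF1B and E2F1, with log2 fold changes of -0.25, -0.21, -0.22, -0.21, -0.16 and -0.16, unadjusted p of 0.0802 to 0.211 and adjusted p of 1 in edgeR. These comparisons share the CTRL libraries. DESeq2 called 2 genes in SG1 against CTRL, 4 in SG3 against CTRL and 4 for the average, none of them in the set, and limma-voom called 0.

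Below the threshold, SG1 held 13 genes of the set (23.6%) whose 3 SG1 libraries all lay below the 3 CTRL libraries, where 7.21% of all genes tested did so, and no gene of the set whose SG1 libraries all lay above CTRL, where 4.96% did. The 13 were UNG, MCM5, E2F1, CCNE1, FEN1, CDT1, POLD1, MCM7, TK1, CHAF1B, UHRF1, MCM2 and POLD2. UNG, the glycosylase that removes uracil from DNA, had 82.8, 86.3 and 88.3 CPM in SG1 libraries, against 124, 107 and 121 CPM in CTRL libraries (log2 fold change -0.45 ± 0.16, unadjusted p = 0.0113, adjusted p = 0.913, edgeR). MCM5, a subunit of the helicase ring, had 102, 110 and 100 CPM in SG1 libraries, against 142, 131 and 124 CPM in CTRL libraries (-0.35 ± 0.15, unadjusted p = 0.0405, adjusted p = 0.913, edgeR). All SG1 values of both genes lay below all CTRL values. E2F1, CCNE1, FEN1 and CDT1 followed in order of p, with log2 fold changes of -0.30, -0.29, -0.32 and -0.32 and unadjusted p of 0.0618 to 0.0761 in edgeR. CDT1 had 52.2, 57.6 and 56.6 CPM in SG1 libraries, against 70.7, 76.1 and 60.9 CPM in CTRL libraries. The flap nuclease FEN1 had 109, 113 and 121 CPM in SG1 libraries, against 150, 135 and 144 CPM in CTRL libraries. Cyclin E1 (CCNE1), which drives entry into S phase, had 19.5, 19 and 21.4 CPM in SG1 libraries, against 25.4, 22.2 and 25.4 CPM in CTRL libraries. In these 3 genes too the SG1 libraries lay below all CTRL libraries, although the groups came close for CDT1 (57.6 against 60.9 CPM) and CCNE1 (21.4 against 22.2 CPM).

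By role, the log2 fold changes of SG1 against CTRL were below 0 for all 6 MCM subunits (median -0.17), all 5 genes of G1/S control (median -0.13), all 4 genes for chromatin of new DNA (median -0.18) and both genes of lagging-strand joining (median -0.24), and above 0 for all 4 origin recognition subunits (median 0.06). None of these genes passed the test. Helicase activation was split, with 4 genes above 0 and 4 below, and DBF4 had the highest value of the 55 at 0.25. In SG3 against CTRL the medians by role lay between -0.11 for the clamp, clamp loader and single-strand binding proteins and 0.05 for G1/S control. The 6 genes with the smallest p in SG3 against CTRL were E2F2, RPA3, RFC4, CHAF1B, POLD3 and DBF4, with log2 fold changes of 0.41, -0.24, -0.18, -0.15, -0.15 and -0.17, unadjusted p of 0.139 to 0.308 and adjusted p of 1 in edgeR. Single libraries set the size of each: without replicate 3 of CTRL, RPA3 was at -0.02, RFC4 at -0.03, POLD3 at -0.04 and DBF4 at 0.02, without replicate 1 of SG3 CHAF1B was at -0.03, and E2F2 lay between 0.24 without replicate 2 of SG3 and 0.63 without replicate 1. E2F2 had 4.23, 7.2 and 6.22 CPM in SG3 libraries, against 5.65, 3.97 and 3.63 CPM in CTRL libraries, and the groups overlapped. Only GINS3 had all SG3 libraries below all CTRL libraries (2.38% of all genes), at 14.5, 13.4 and 14.7 CPM in SG3 libraries, against 16.3, 15.2 and 15 CPM in CTRL libraries.

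**Figure D2:**
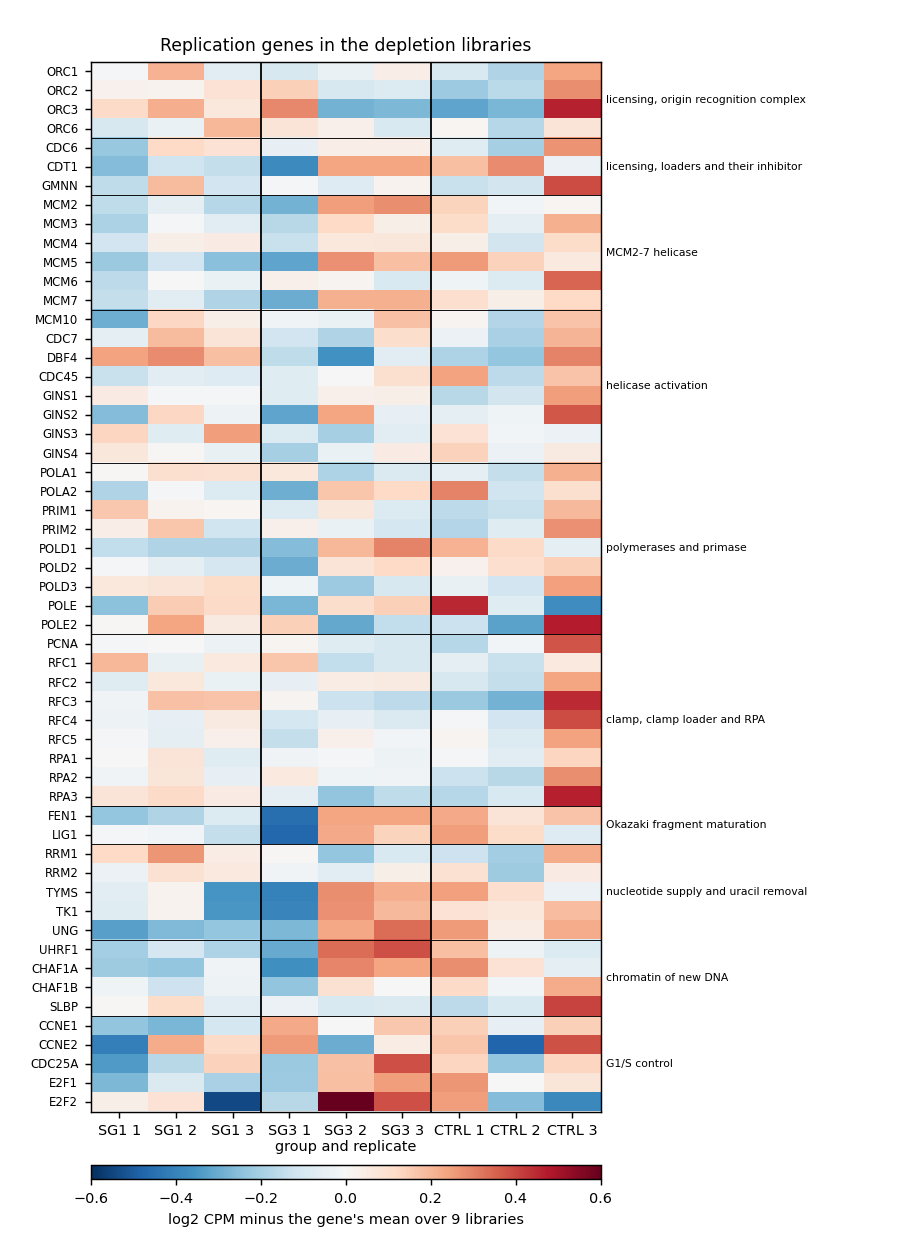
Log2 CPM of the 55 genes in SG1, SG3 and CTRL libraries, each minus the gene's mean over the 9 libraries (colour, red above and blue below), with genes in rows by role. Replicate 1 of SG3 is below its group for CDT1, MCM5, FEN1 and LIG1, and replicate 3 of CTRL is the highest CTRL library for 36 of the 55 genes.

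Leaving out single libraries turned the sign of the medians. Replicate 3 of CTRL was the highest CTRL library for 36 of the 55 genes and replicate 2 for 1, while over all genes tested replicate 3 was the highest for 40.5%. Without replicate 3 of CTRL the median of the set was 0.02 for SG1, 0.03 for SG3 and 0.02 for their average, each against CTRL, so its sign turned in all 3. Without replicate 1 of SG3 the median of SG3 against CTRL was 0.02. The GC content of the transcripts moved with these libraries. Replicate 1 of SG3 over replicates 2 and 3 had a correlation of -0.80 with GC content across the 55 genes, which spanned 36.9 to 65% GC, and of -0.53 across 16601 genes. For replicate 3 of CTRL over replicates 1 and 2 the values were -0.73 and -0.56. These are correlations across genes that share the same libraries and are no test.

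The SG1 difference followed GC content as well. Across the 55 genes the log2 fold change of SG1 against CTRL had a correlation of -0.71 with GC content (-0.32 across 16601 genes), and its median was -0.19 for the 27 genes above the set's median GC content of 48.2% and 0.03 for the other 28. All 13 genes whose SG1 libraries lay below CTRL were above that median, at 48.7 to 65% GC. In 12 of the 13, replicate 1 of SG3 also lay below all CTRL libraries, and in 0 of the 13 did replicate 2 or 3 of SG3. The 13 were picked for lying below these same CTRL libraries, and no share over all genes was taken, so these counts are descriptions only. UNG had 86.2 CPM in replicate 1 of SG3 and 122 and 131 CPM in replicates 2 and 3, and FEN1 had 93.5 CPM in replicate 1 and 151 CPM in both others. Among the 13, CCNE1 was the exception, with 26.9, 23 and 25.7 CPM in SG3 libraries. The part of GC content in the SG1 values was not tested. For SG3 against CTRL the correlation was 0.24.

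**Figure D3:**
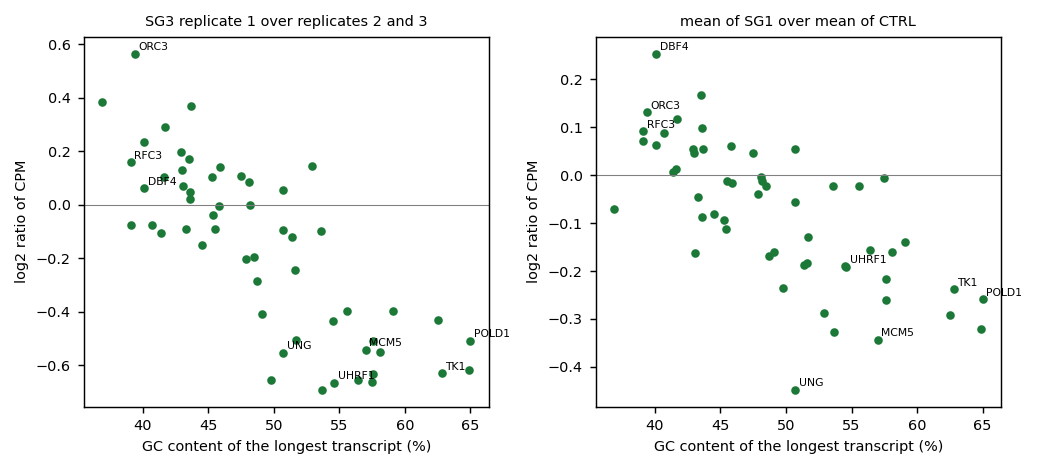
Log2 ratio of CPM against the GC content of the longest transcript (%) for the 55 genes, for replicate 1 over replicates 2 and 3 of SG3 (left) and for the SG1 mean over the CTRL mean (right). Both fall with GC content, with correlations of -0.80 and -0.71 across the genes.

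SG1 and SG3 differed from each other in no gene of the set past the threshold. In SG1 against SG3, 0 of 55 and 0% of all genes were called, and 3 of 55 had an unadjusted p under 0.05, where 4.74% of all genes did. DESeq2 called 4 genes, none in the set. DBF4, the activating partner of the CDC7 kinase, had 69.9, 72 and 67 CPM in SG1 libraries, against 53.3, 46.1 and 56.6 CPM in SG3 libraries, without overlap (log2 fold change 0.42 ± 0.16, unadjusted p = 0.018, adjusted p = 0.861, edgeR). CTRL libraries had 52, 50.4 and 72.8 CPM, so replicate 3 of CTRL reached the SG1 level. UNG (-0.40) and CCNE1 (-0.34) had unadjusted p of 0.0213 and 0.0367 and an adjusted p of 0.861 in edgeR, followed by UHRF1 (-0.33), E2F1 (-0.26) and POLD1 (-0.27) with unadjusted p of 0.0684, 0.0932 and 0.1 and the same adjusted p. RRM1, the large subunit of ribonucleotide reductase, had 324, 358 and 308 CPM in SG1 libraries, against 300, 254 and 280 CPM in SG3 libraries. DBF4, RRM1, POLD3, RPA3 and RFC4 had all SG1 libraries above all SG3 libraries (5 of 55, where 6.26% of all genes did), and CCNE1 the reverse (1 of 55, where 4.55% did). Without replicate 1 of SG3, 16 of the 55 had an unadjusted p under 0.05, as did 17.9% of all genes (3080 of 17236), and none of the 55 was called in edgeR, where 5 of all genes were called lower.

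A list of 30 genes of G2/M, the time of mitosis that follows S phase, was set beside the replication genes. In SG1 against CTRL, 26 of these 30 had a log2 fold change above 0 with a median of 0.25, while the 55 replication genes had a median of -0.06. Only 3 of the 30 had all SG1 libraries above all CTRL libraries, where 4.96% of all genes did. In SG3 against CTRL, 3 of 30 were above 0 with a median of -0.11. In SG1 against SG3, 29 of 30 were above 0 with a median of 0.39, and 16 of 30 had all SG1 libraries above all SG3 libraries, where 6.26% of all genes did. In edgeR, 9 of the 30 had an unadjusted p under 0.05 in SG1 against CTRL (4.59% of all genes), 0 in SG3 against CTRL and 16 in SG1 against SG3 (4.74% of all genes), and none of the 30 passed the test in any of the 3. Per library, the median of the replication genes minus that of the G2/M genes, on the log2 scale and relative to the mean of the 9 libraries, was -0.32, -0.38 and -0.04 in SG1 libraries and 0.10, 0.21 and 0.18 in SG3 libraries, against 0.19, 0.03 and 0.05 in CTRL libraries. All SG1 libraries lay below all CTRL libraries in this measure, with replicate 3 of SG1 close to CTRL. The 13 mitochondrially encoded genes had medians of 0.61 in SG1 against CTRL and -0.16 in SG3 against CTRL, with none called in edgeR. Their summed levels were 15341 to 33801 CPM in SG1 libraries and 9614 to 19597 CPM in SG3 libraries, against 9949 to 25102 CPM in CTRL libraries, and overlapped between the groups. Within SG1 the library lowest in the measure above (replicate 2) had the lowest sum and the one closest to CTRL (replicate 3) the highest.

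**Figure D4:**
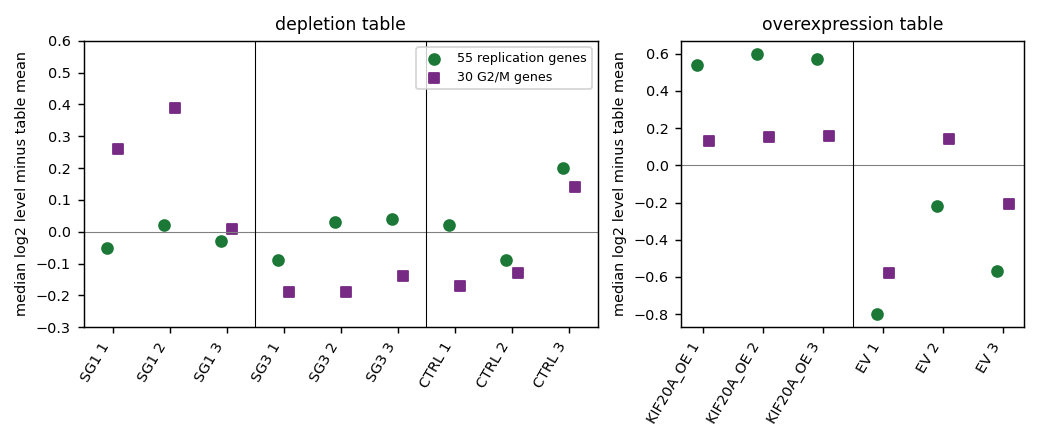
Median log2 level of the 55 replication genes (circles) and of 30 G2/M genes (squares) in each library, relative to the mean of its table, with different vertical scales in the panels. In the depletion table the replication genes stay between -0.09 and 0.20, and in the overexpression table they are at 0.54 to 0.60 in libraries labelled KIF20A_OE and at -0.80 to -0.22 in EV libraries.

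Most of the set was higher in libraries labelled KIF20A_OE than in EV. In limma on log2(FPM + 1), 44 of 55 genes rose and 0 fell, where 46.2% of the 15265 genes tested rose, 23.4% fell and 69.6% did either. The median log2 fold change was 1.14 in the set and 0.37 over all genes, and 51 genes lay above 0 (63.4% of all genes). Of all genes called, 66.4% were higher. The number depended in part on scaling and test. The TMM setting used edgeR with its own filter (17078 genes tested), so a call lost with TMM here and below cannot be put down to scaling alone. With TMM scaling of the recovered fragments in edgeR, where the median of all genes was 0.08 and 52.1% of the genes called were higher, 35 of 55 rose and 3 fell, where 33.2% and 30.5% of all genes did, and the median of the set was 0.74. With quantile normalization, 44 rose and 1 (PRIM2) fell, where 36.3% and 30.6% did, the share of higher genes among those called was 54.3%, and the median was 1.08. In all 3 scalings 35 of the 55 genes rose, and every gene named below as risen is among them unless said otherwise. Without overlap between the groups, 43 genes were higher in all 3 libraries labelled KIF20A_OE (48.9% of all genes) and 1 (PRIM2) lower (25.2%).

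**Figure D5:**
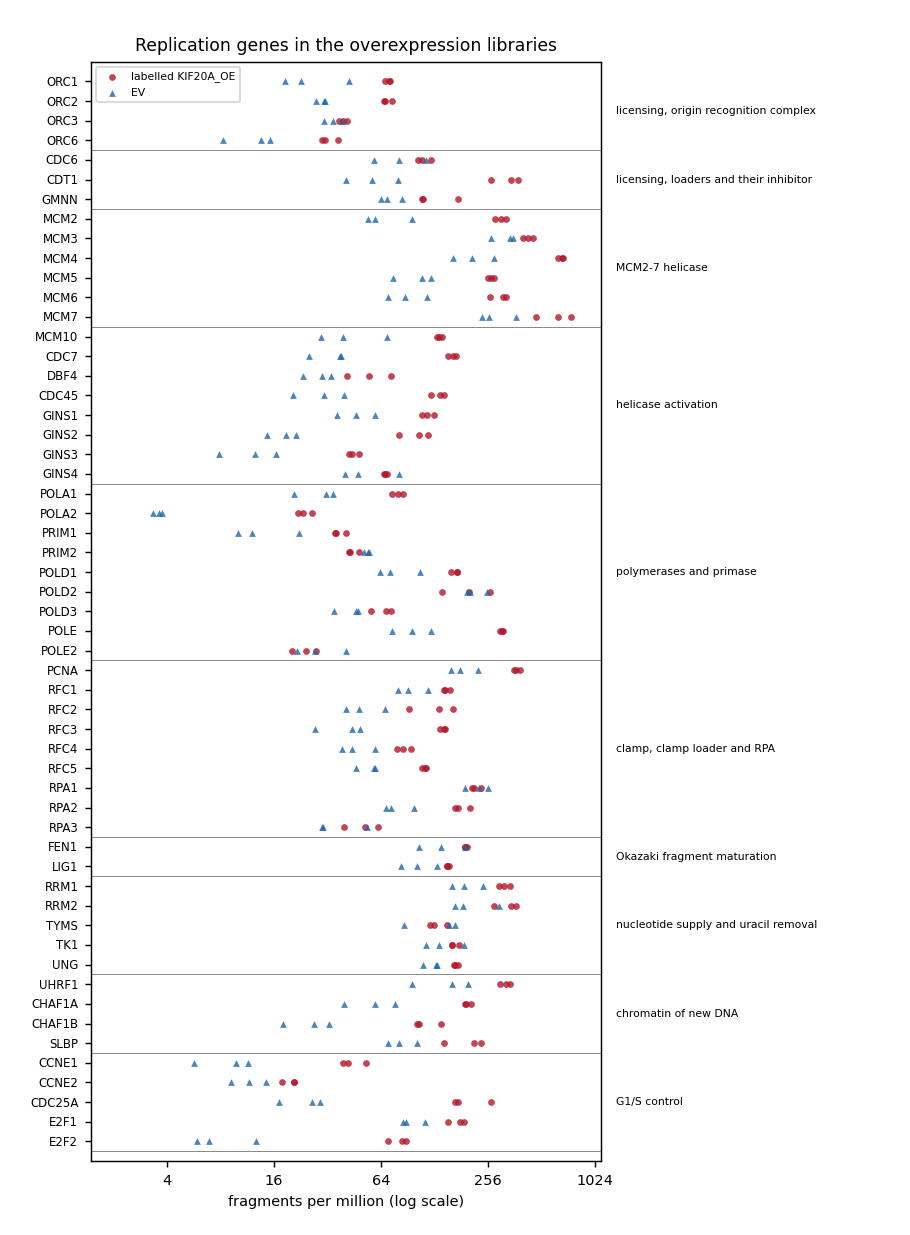
FPM of the 55 genes on a log axis, with genes in rows by role, in 3 libraries labelled KIF20A_OE (circles) and 3 EV libraries (triangles). All circles lie to the right of all triangles for 43 genes and to the left for PRIM2.

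Genes of G1/S control had the highest median log2 fold change of the roles, at 2.24. E2F2 had 83.9, 70.3 and 88.8 FPM in libraries labelled KIF20A_OE, against 5.9, 12.7 and 6.94 FPM in EV libraries, a 9.53-fold ratio of means (log2 fold change 3.17 ± 0.26, limma adjusted p = 1.07e-05). CDC25A, the phosphatase that activates CDK2, had 174, 265 and 168 FPM in libraries labelled KIF20A_OE, against 17.1, 28.9 and 26.2 FPM in EV libraries (3.02 ± 0.24, limma adjusted p = 9.33e-06). CCNE1 had 39.3, 53.1 and 42 FPM in libraries labelled KIF20A_OE, against 5.67, 9.81 and 11.5 FPM in EV libraries (2.24 ± 0.25, limma adjusted p = 7.64e-05). None of these 3 genes overlapped between the groups. Their close relatives differed less: E2F1 had a log2 fold change of 0.86 ± 0.15 (limma adjusted p = 0.000933), and the second cyclin E gene, CCNE2, of 0.72 ± 0.20 (limma adjusted p = 0.0107), a call lost with TMM (0.38) and quantile scaling (0.33). Per kilobase of exon, the ratio of E2F2 to E2F1 was 0.206, 0.211 and 0.228 in libraries labelled KIF20A_OE, against 0.0319, 0.0512 and 0.0362 in EV libraries. The ratio of CCNE1 to CCNE2, also per kilobase, was 3.24, 5.16 and 3.49 in libraries labelled KIF20A_OE, against 1.06, 1.16 and 1.7 in EV libraries. Both ratios were free of library scaling and did not overlap between the groups, but their size rests on the annotated exon lengths.

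Among licensing genes, CDT1 had 377, 267 and 344 FPM in libraries labelled KIF20A_OE, against 40.5, 80.1 and 56.8 FPM in EV libraries (log2 fold change 2.50 ± 0.24, limma adjusted p = 3.2e-05). Its inhibitor GMNN had 109, 174 and 111 FPM in libraries labelled KIF20A_OE, against 63.8, 84.3 and 69.1 FPM in EV libraries (0.82 ± 0.20, limma adjusted p = 0.00601), a call lost with TMM, at 0.49. The groups did not overlap in either gene. Per kilobase of exon, the ratio of CDT1 to GMNN was 2.57, 1.14 and 2.3 in libraries labelled KIF20A_OE, against 0.47, 0.705 and 0.61 in EV libraries. This ratio was 0.719, 0.624 and 0.761 in SG1 libraries and 0.598, 0.96 and 0.899 in SG3 libraries, against 0.959, 1.02 and 0.576 in CTRL libraries. CDC6, which loads the helicase with CDT1, had 109, 123 and 103 FPM in libraries labelled KIF20A_OE, against 58.6, 115 and 80.8 FPM in EV libraries, and did not pass the test (0.44 ± 0.22, limma adjusted p = 0.11). The origin recognition subunits ORC1, ORC2 and ORC6 rose by 1.38, 1.19 and 1.37 on the log2 scale, while ORC3 had 39.4, 37.4 and 41.1 FPM in libraries labelled KIF20A_OE, against 34.5, 38.7 and 30.8 FPM in EV libraries (limma adjusted p = 0.265).

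All 6 subunits of the MCM ring rose in limma, where 46.2% of all genes tested did. The rise was 2.14 for MCM2, 1.72 for MCM6, 1.64 for MCM4, 1.41 for MCM5, 1.11 for MCM7 and 0.44 for MCM3 on the log2 scale. MCM2 had 279, 301 and 324 FPM in libraries labelled KIF20A_OE, against 53.8, 95.7 and 59.5 FPM in EV libraries (SE 0.21, limma adjusted p = 3.16e-05). MCM3 had 405, 461 and 429 FPM in libraries labelled KIF20A_OE, against 267, 340 and 354 FPM in EV libraries (SE 0.14, limma adjusted p = 0.0189). The groups did not overlap for any of the 6, but the MCM3 call was lost with TMM (0.06) and without replicate 2 or 3 of KIF20A_OE or replicate 1 of EV (limma adjusted p of 0.0507 to 0.0632). Since the subunits rose unequally, MCM3 was the highest subunit per length in EV and MCM7 in libraries labelled KIF20A_OE.

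Of 8 genes of helicase activation, 7 rose in limma, where 46.2% of all genes tested did. CDC7 had 162, 169 and 152 FPM in libraries labelled KIF20A_OE, against 25.1, 38.1 and 37.5 FPM in EV libraries (log2 fold change 2.25 ± 0.17, limma adjusted p = 7.88e-06). Its partner DBF4 had 41.2, 72.9 and 54.8 FPM in libraries labelled KIF20A_OE, against 23.3, 33.7 and 30 FPM in EV libraries (0.91 ± 0.23, limma adjusted p = 0.00658). The groups overlapped in neither. Per kilobase of exon, the ratio of CDC7 to DBF4 was 5.06, 2.98 and 3.57 in libraries labelled KIF20A_OE, against 1.39, 1.45 and 1.61 in EV libraries. GINS2 had 105, 81.4 and 118 FPM in libraries labelled KIF20A_OE, against 14.6, 21.4 and 18.7 FPM in EV libraries (2.41 ± 0.19, limma adjusted p = 9.64e-06). CDC45 rose by 2.16, GINS3 by 1.84, MCM10 by 1.64 and GINS1 by 1.32 on the log2 scale. GINS4, the remaining GINS subunit, did not pass the test (0.33 ± 0.24, limma adjusted p = 0.243) and overlapped through replicate 2 of EV, at 66.6, 67.2 and 69 FPM in libraries labelled KIF20A_OE, against 47.6, 81 and 40 FPM in EV libraries.

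The polymerases and primase were split. POLA2, whose promoter is among the sequences above, had 26.2, 22 and 23.4 FPM in libraries labelled KIF20A_OE, against 3.62, 3.77 and 3.35 FPM in EV libraries (log2 fold change 2.44 ± 0.17, limma adjusted p = 4.38e-06). The catalytic subunits of the 3 replicative polymerases rose as well, POLE by 1.66, POLA1 by 1.47 and POLD1 by 1.08 on the log2 scale, as did the primase subunit PRIM1 by 1.35, and POLD3 by 0.61 except with TMM (0.25). The other primase subunit, PRIM2, had 43.1, 48.1 and 42.2 FPM in libraries labelled KIF20A_OE, against 51.1, 55.2 and 54.2 FPM in EV libraries. All 3 values of the libraries labelled KIF20A_OE were below EV, with -0.26 ± 0.12 and an adjusted p of 0.0837 in limma, and PRIM2 was called lower with TMM (-0.64) and quantile scaling (-0.44). POLE2, the second subunit of polymerase epsilon, had -0.26 in limma (adjusted p = 0.346) and was called lower with TMM (-0.68), and POLD2 had -0.15 (limma adjusted p = 0.57).

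Of 9 genes for the clamp, its loader and single-strand binding, 7 rose in limma, where 46.2% of all genes tested did. PCNA had 357, 367 and 386 FPM in libraries labelled KIF20A_OE, against 158, 225 and 178 FPM in EV libraries (log2 fold change 0.99 ± 0.14, limma adjusted p = 0.000345). The clamp loader subunits rose by 1.85 for RFC3, 1.30 for RFC2, 1.02 for RFC5, 0.86 for RFC4 and 0.64 for RFC1 on the log2 scale, with the RFC1 call lost under TMM (0.27). The 3 subunits of the single-strand binding protein RPA did not move together. RPA2 had 173, 166 and 202 FPM in libraries labelled KIF20A_OE, against 72.5, 98.1 and 68.3 FPM in EV libraries (1.19 ± 0.16, limma adjusted p = 0.000237). RPA1 had 214, 234 and 209 FPM in libraries labelled KIF20A_OE, against 191, 256 and 228 FPM in EV libraries (-0.03 ± 0.13, limma adjusted p = 0.849), with full overlap, and was called lower with TMM (-0.41). RPA3 had 0.46 ± 0.25 (limma adjusted p = 0.139).

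The genes of nucleotide supply and uracil removal and those of lagging-strand joining had the lowest median log2 fold changes of the roles, at 0.44 and 0.49. TYMS, which makes thymidylate, had 128, 121 and 151 FPM in libraries labelled KIF20A_OE, against 86.3, 155 and 168 FPM in EV libraries (log2 fold change 0.02 ± 0.24, limma adjusted p = 0.94). TK1, which salvages thymidine, had 161, 175 and 160 FPM in libraries labelled KIF20A_OE, against 114, 188 and 135 FPM in EV libraries (0.21 ± 0.18, limma adjusted p = 0.314). The groups overlapped for both. The ribonucleotide reductase subunits rose by 0.71 for RRM1 and 0.65 for RRM2, UNG by 0.44 and LIG1 by 0.54 on the log2 scale in limma, and all 4 calls were lost with TMM (0.33, 0.25, 0.08 and 0.15). The LIG1 call was also lost without any 1 of the KIF20A_OE replicates or replicate 1 of EV (limma adjusted p of 0.0517 to 0.0578), and the RRM2 call without replicate 1 or 3 of KIF20A_OE or of EV (0.0732 to 0.0974). FEN1 had 194, 190 and 190 FPM in libraries labelled KIF20A_OE, against 105, 191 and 140 FPM in EV libraries (0.44 ± 0.20, limma adjusted p = 0.0794). All 4 genes for chromatin of new DNA rose in limma, where 46.2% of all genes tested did. CHAF1B rose by 2.15 and CHAF1A by 1.78 on the log2 scale, subunits of the chaperone that deposits histones behind the fork. The histone mRNA binding protein SLBP rose by 1.20, and UHRF1, which recruits the maintenance methyltransferase to hemimethylated DNA, by 1.14.

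EV libraries were uneven in this set. Replicate 2 of EV was the highest EV library for 47 of the 55 genes (32.7% of all genes) and replicate 1 the lowest for 50 (43%). The median coefficient of variation of the 55 genes was 7.65% in libraries labelled KIF20A_OE and 25.2% in EV, against 14.3% and 17.2% over all genes. Without replicate 2 of EV, 49 of the 55 were called higher and the median was 1.29, with CDC6, FEN1, GINS4, RPA3 and TK1 added, while 44.9% of all genes were called higher and their median was 0.40. Without replicate 1 of EV, 41 of the 55 and 43.6% of all genes were called higher, with medians of 0.99 and 0.37.

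Genes of the same pathway outside the set, from lists chosen beside it, gave the following counts in limma, where 46.2% of all genes tested rose and 23.4% fell. Of 31 tested further fork genes 23 rose and 1 fell (median log2 fold change 0.86), with TICRR (2.38), TIPIN (2.21) and TOPBP1 (1.32), which act in origin firing or fork protection, higher and POLD4 (-2.28), a small subunit of polymerase delta, lower. Of 17 further genes of nucleotide supply 10 rose and 3 fell (median 0.72), of 13 genes of the S phase checkpoint 8 rose and 0 fell (median 0.60), and of 33 further genes of G1/S control 16 rose and 7 fell (median 0.38). Of 29 tested G2/M genes 10 rose and 3 fell (median 0.36), near the 0.37 of all genes. These counts, too, depended on scaling and test. With TMM, where 33.2% of all genes rose and 30.5% fell, 15 of 32 fork genes rose and 3 fell (median 0.42), and for nucleotide supply 8 of 17 rose and 3 fell. With TMM the checkpoint list had 4 of 13 higher and 2 lower, G1/S control 10 of 33 higher and 9 lower (median 0.02), and G2/M 5 of 29 higher and 6 lower (median -0.03). With quantile normalization, where 36.3% rose and 30.6% fell, the 5 lists in the same order had 22 and 1, 10 and 3, 5 and 0, 15 and 7, and 12 and 3 genes higher and lower. In the depletion comparisons 0 genes of these lists were called. Per library, the median of the replication genes minus that of the G2/M genes was taken on the log2 FPM scale, with nothing added to the values. This difference was 0.41, 0.45 and 0.41 in libraries labelled KIF20A_OE, against -0.22, -0.35 and -0.36 in EV libraries. MYBL2, an E2F target that encodes the transcription factor B-Myb, had 576, 499 and 588 FPM in libraries labelled KIF20A_OE, against 72.7, 109 and 77.6 FPM in EV libraries (2.69 ± 0.17, limma adjusted p = 2.49e-06).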

How the data were processed

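The authors deposited the depletion table as raw counts and the second table as values called FPKM per the labels. In that second deposited table the values of each column were whole multiples of a step and added up to 1000000, so the values are FPM, which correspond to CPM and hold no gene length. Division by the step recovered whole fragments for 100% of values (tolerance 0.001). The design had assumed FPKM, and its test on a log scale was kept. The submitters' processing notes name STAR 2.7.3a, Trim Galore 0.6.4, Subread 1.6.3 with featureCounts, limma 3.50.3 and build hg38. The sources used here do not give their settings. Library totals were 40.9 to 51 M (M for 1000000) counts and 16 to 22.2 M recovered fragments, and CPM use TMM library sizes.

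For the counts, edgeR 4.0.16 (R 4.3.3) ran its quasi-likelihood test (TMM, default expression filter, 1 fit of 9 libraries, no replicate block). FPM were tested with limma 3.58.1 (trend, robust) on log2(FPM + 1) for genes averaging at least 1 FPM, a scale that understates changes of low genes. Adjusted p-values are Benjamini-Hochberg values over all genes tested, with a threshold of 0.05, and ± values of fold changes are SE. The scripts were tested on simulated data, with a spread that was set and not taken from these libraries. Of simulated 1.5-fold rises, 31.9% were recovered in SG1 against CTRL, 34.8% in SG3 against CTRL and 21.7% in KIF20A_OE against EV. For 2-fold rises the shares were 95.6%, 97.1% and 95.7%. Smaller changes could thus be missed. The tables were scaled separately and not tested against each other. Exon lengths, overlaps and coordinates came from GENCODE 29 on GRCh38, which matched all 55 genes, and promoters from RefSeq.

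Alternatives were other size factors, filters, pseudocounts and tools (DESeq2 1.42.0, limma-voom, edgeR on recovered fragments, quantile normalization), halved counts, a replicate block and leaving out each library. Values are printed for KIF20A and, in each comparison, for genes of the set past the threshold and the 6 with the smallest p, some of them with the log2 fold change alone or a range of p. A few more genes of the set that missed it are given with their p, chosen after their values were seen. Other lists are given by counts, with at most 4 named genes past the threshold. The set and the lists were chosen with earlier results of these data known.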

Additional observations from a re-analysis of the deposited data

How the results depend on the processing

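No alternative called a gene of the set in the depletion comparisons. The number of all genes called, 0 in each, was 91, 8, 77 and 20 without a filter on low counts and 2, 4, 4 and 4 with DESeq2 for SG1 and then SG3 against CTRL, for SG1 against SG3, and for both depletion groups averaged against CTRL, and 0 to 1, 0, 0 to 5 and 0 to 2 when 1 library was left out. DBF4 in SG3 against CTRL ranged from -0.25 to 0.02 when 1 library was left out and turned sign without replicate 3 of CTRL. KIF20A in SG3 against CTRL passed with DESeq2 (adjusted p = 0.000166) and without the filter in edgeR (adjusted p = 1.85e-07). For both depletion groups averaged against CTRL it passed with DESeq2 (adjusted p = 0.0341) and without the filter in edgeR (adjusted p = 0.000114). In SG1 against SG3 it passed without the filter in edgeR (adjusted p = 0.0261), and in SG1 against CTRL it passed with neither setting. In KIF20A_OE against EV the median of the set was 0.74 with edgeR on recovered fragments, which called 3 genes of the set lower, and quantile normalization called 1 lower. When 1 library was left out the number called higher was 41 to 49 and the median 0.99 to 1.29. The replicate numbers were not used to pair the libraries in the main tests. Deviations of same-numbered libraries had correlations of -0.12 to 0.18 in the depletion table and 0.01 to 0.06 in the FPM table. For libraries of different numbers they were -0.16 to 0.18 and -0.05 to 0.01. Such weak values cannot show whether libraries were paired. With a replicate block no depletion call arose, the number of genes with an unadjusted p under 0.05 was 607, 168 and 637 for the first 3 of these comparisons, and 44 genes of the set stayed higher in KIF20A_OE against EV. Among depletion counts of 10 to 50, 62.9 to 68% were even, and halved counts changed no call of the set. The causes were not tested. The lowest depletion value of the set, 3.26 CPM for E2F2, lay above the floor of 3 counts, at most 0.0734 CPM per library.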

Other observations

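The 25 genes of the set with E2F letters in their promoter and the 23 without them can be set side by side. The median log2 fold change of KIF20A_OE against EV was 1.32 with the letters and 1.08 without, and both groups reached down to -0.26. In limma, 21 of 25 and 18 of 23 were called higher, where 46.2% of all genes tested were. The median log2 fold change of SG1 against CTRL was -0.13 with the letters and -0.04 without. The split was not matched for GC content, with which the SG1 values moved. These are descriptions, and the letters in a window say nothing of binding.

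Within groups, the replication genes varied less than genes at large in the depletion libraries. Their median coefficient of variation was 5.52% in SG1 and 9.61% in SG3, against 13.7% in CTRL, where all genes tested had 13.5%, 18% and 18.1%. The coefficient depends on level, and the genes were not matched for level, so the lower values cannot be read as a trait of the set. The genes with the highest coefficient were E2F2 in SG1 (22.4%) and in SG3 (25.7%) and ORC3 in CTRL (32.3%), and those with the lowest were POLD1 in SG1 (1.25%), RPA1 in SG3 (0.74%) and MCM7 in CTRL (2.96%). ORC3 had 36.4 and 37.5 CPM in replicates 1 and 2 of CTRL and 62.4 CPM in replicate 3.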
